A study of Homo sapiens with 2 samples.

Results

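The genes examined here encode the extracellular matrix and the proteins that hold cells to it and cut it. They are 55 genes out of 60623 entries counted, chosen by symbol with earlier results of these data known. These genes are collagens, laminins, matrix glycoproteins, integrins, matrix proteases with their inhibitors, and crosslinking enzymes. By role they fall into 32 matrix genes, 11 integrin receptor genes, 9 protease and inhibitor genes and 3 crosslinking enzyme genes. Their RNA was measured by RNA sequencing in HepG2 cells, a human hepatocellular carcinoma line of wild-type genotype in the sample records. Both groups received 1 mM free fatty acids (FFAs, oleic and palmitic acid bound to BSA) for 24 h, which loads hepatocytes with lipid. The FFA group had no 9-cis-RA, and the FFA + 9-cis-RA group also received 10 μM 9-cis-retinoic acid for 24 h, a vitamin A derivative that activates the nuclear receptors RXR and RAR. Each group is 1 library, both are recorded in the same batch, and no library without FFA was analysed here.

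Collagens and laminins are long trimeric proteins that cells secrete and assemble outside. Laminins, type IV collagen, nidogen, perlecan and agrin build the basement membrane, the sheet beneath epithelia, whereas fibrillar collagens and fibronectin build the interstitial matrix that expands in liver fibrosis. In the liver the fibrillar collagens come mainly from stellate cells, and hepatocytes secrete plasma fibronectin. Integrins, each a pair of an alpha and a beta chain, bind these proteins at the cell surface. Matrix metalloproteinases (MMPs) cut them, tissue inhibitors of metalloproteinases (TIMPs) block the MMPs, and lysyl oxidases and transglutaminase link matrix chains covalently.

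The FFA library held 60821539 counted fragments and the 9-cis-RA library 57669670. Each difference below is a log2 fold change, 9-cis-RA library against FFA library, so negative values are lower with 9-cis-RA. Counts of a gene were divided by median-of-ratios size factors, and a pseudocount of 1 was then added. The interval printed beside a log2 fold change is an exact 95% interval of counting error. With 1 library per group there are no replicates, so intervals compare these libraries and not the treatments, and no test between conditions was possible. The comparison took in every gene with a total of 10 counts or more, 20431 in all, and their median log2 fold change was -0.02. Levels between genes are compared only per length, in TPM (transcripts-per-million). A count of 0 allows a share of up to 0.0493 CPM (counts-per-million) with FFA and 0.0520 CPM with added 9-cis-RA (3 counts). The retinoid response genes CYP26A1 (4 and 709 counts), RARB (6 and 46) and DHRS3 (1126 and 1999) each had more counts with 9-cis-RA than without. In bulk RNA, fewer cells of a type and less RNA per cell cannot be told apart. Of 8 stellate cell and fibroblast markers, 4 had fewer than 10 counts, among them PDGFRA, DCN and LRAT with none in either library. Their summed level was 19.6 TPM in the FFA library and 14.0 in the 9-cis-RA library, nearly all of it ACTA2, smooth muscle actin, which had 1186 and 773 counts (log2 fold change -0.59 [-0.72, -0.46]) and shares 13.5% of its exonic bases with a same-strand gene. The 8 hepatocyte markers summed to 14268 and 12166 TPM. Among 6 endothelial markers KDR and TEK had no count, with a sum of 1.35 and 0.883 TPM, and among 5 immune markers PTPRC had none. The immune sum was 159 and 98.3 TPM, nearly all of it LYZ. The 4 cholangiocyte markers summed to 375 and 345 TPM. The part of any of these markers in the results was not tested.

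Of the 55 genes, 45 had enough counts to compare, 10 had fewer than 10 counts, and 3 of those 10 had none (COL11A1, COL12A1 and ITGB8). Among the 45, 31 were lower and 14 higher with 9-cis-RA, with a median log2 fold change of -0.20 (medians of the interval bounds -0.40 and -0.06) against -0.02 for all genes compared. Of all genes compared, 10680 were lower and 9751 higher, and the numbers of lower and higher genes below are to be read beside these. None of the 45 was above 0.5, a mark passed by 9.03% of all genes compared, and 13 (28.9%) were below -0.5, against 14.3%. Below -1 were 3 genes, COL2A1, LAMA1 and MMP7 (6.67% against 4.9%), and none was above 1 (against 3.37%). Low counts scatter more, so the shares were also taken over the 15917 genes with totals of 50 or more. There 12 of 40 genes (30%) lay below -0.5, against 9.31% of all, and none above 0.5, against 4.64%. Past 1 in the same set were 2 lower genes, against a background of 2.27%, and no higher gene, against 0.961%. The whole counting interval lay below 0 for 24 of the 45 genes (53.3%, against 25.7% of all genes) and above 0 for 8 (17.8%, against 22.5%). These last shares also depend on depth, since the 45 genes had a median of 3143 counts over both libraries and all genes compared had 1045. Because the list was chosen with earlier results of these data known, the choice may bear on all the shares in this paragraph, and its part was not tested.

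**Figure D1:**
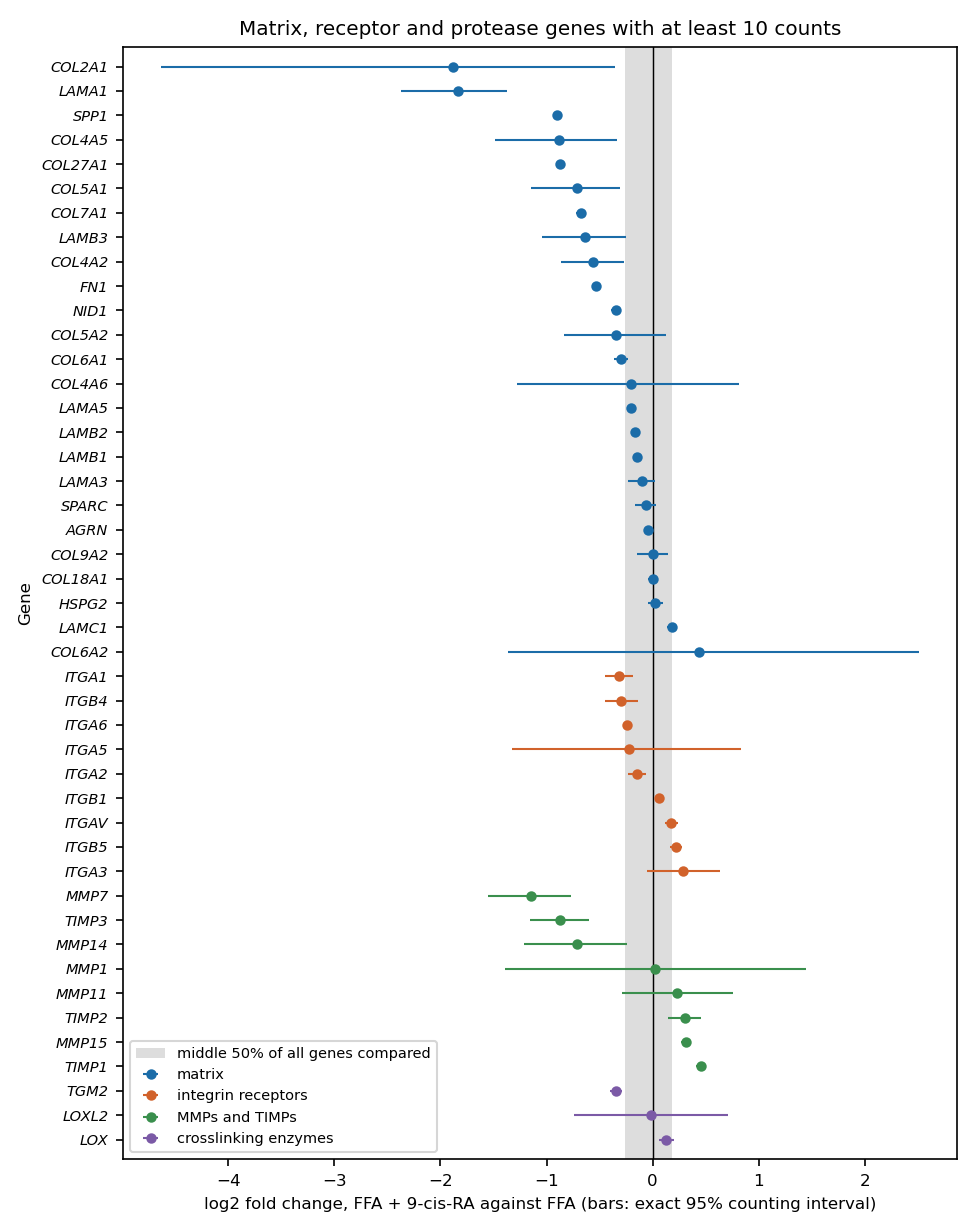
Log2 fold change (x axis, 9-cis-RA library against FFA library) of the 45 genes with a total of 10 counts or more, 1 row per gene and colored by role. Bars are exact 95% counting intervals and the grey band holds the middle 50% of all 20431 genes compared. SPP1, COL27A1 and COL7A1 have narrow intervals well below 0, and TIMP1 is the highest gene with a narrow interval.

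Among the 40 genes with an entry in the RefSeq promoter table of GRCh38.p14, the 250 bases before the transcription start were searched on both strands for 4 short motifs. These were AGGTCA (the half-site that RXR and its partner receptors bind), TGANTCA (the AP-1 site), GGGCGG (the GC box) and TATAAA (the TATA box). Shown are both genes that hold AGGTCA, COL7A1 and MMP15, together with MMP7, which holds an AP-1 site, and FN1, which holds 6 GC boxes. COL18A1 with 9 GC boxes and HSPG2 with 8 held more and are not shown. Each sequence runs 5′ to 3′ in the direction of its gene and ends at the base before the start, and capitals mark every motif match on either strand. COL7A1 is at chr3:48595330-48595579 on the minus strand, MMP15 at chr16:58025504-58025753 on the plus strand, MMP7 at chr11:102530748-102530997 on the minus strand and FN1 at chr2:215436069-215436318 on the minus strand.
COL7A1: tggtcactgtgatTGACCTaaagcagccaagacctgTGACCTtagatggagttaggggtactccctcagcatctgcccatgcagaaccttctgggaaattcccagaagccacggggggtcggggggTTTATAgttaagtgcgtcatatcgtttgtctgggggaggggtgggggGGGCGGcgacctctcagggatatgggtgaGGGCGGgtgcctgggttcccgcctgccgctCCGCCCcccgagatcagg
MMP15: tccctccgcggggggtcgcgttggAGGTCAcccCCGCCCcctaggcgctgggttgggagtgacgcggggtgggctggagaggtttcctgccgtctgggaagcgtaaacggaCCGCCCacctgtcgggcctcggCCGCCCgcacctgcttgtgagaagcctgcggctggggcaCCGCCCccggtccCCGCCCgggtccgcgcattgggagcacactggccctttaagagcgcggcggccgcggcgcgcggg
MMP7: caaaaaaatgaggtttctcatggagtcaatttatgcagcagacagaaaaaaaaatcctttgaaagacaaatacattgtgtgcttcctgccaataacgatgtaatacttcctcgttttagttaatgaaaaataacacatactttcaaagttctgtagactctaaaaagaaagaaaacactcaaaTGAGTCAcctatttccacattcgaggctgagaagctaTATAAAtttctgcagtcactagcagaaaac
FN1: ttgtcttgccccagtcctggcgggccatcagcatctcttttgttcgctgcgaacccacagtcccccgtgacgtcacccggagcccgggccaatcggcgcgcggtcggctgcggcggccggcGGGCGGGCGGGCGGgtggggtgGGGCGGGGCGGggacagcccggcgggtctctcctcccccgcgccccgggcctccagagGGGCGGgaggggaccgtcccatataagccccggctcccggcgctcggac

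AGGTCA began 237 and 214 bases before the start of COL7A1, both times on the opposite strand, and 226 bases before the start of MMP15. No other of the 40 windows held it, 2 of 40 (5.00%) against 12.1% of all 35116 promoters and 9.34% of the 12279 that belong to genes compared here. COL7A1 was lower and MMP15 higher with 9-cis-RA. The AP-1 site stood 67 bases before the start of MMP7, whose TATA box was at 30, and LAMA3 held AP-1 sites at 125 and 69. AP-1 sites were thus in 2 of 40 windows, against 6.57% of all promoters and 4.13% of those of compared genes. GC boxes, which may overlap each other, were in 32 of 40 windows (80.0%), against 42.6% of all promoters and 64.2% of those of compared genes. FN1 held 6 of them and MMP7 none. A TATA box was in 4 of 40 windows (10.0%), those of MMP7, ITGA6, COL6A2 and COL7A1, against 10.7% of all promoters and 6.01% of those of compared genes. A match describes letters in the window and not a bound site.

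The 32 matrix genes were lower as a class. Of the 25 compared, 21 were lower and 4 higher (COL6A2, COL18A1, LAMC1 and HSPG2), the median log2 fold change was -0.30 (medians of the bounds -0.55 and -0.17), and 10 lay below -0.5. Their summed counts were 395191 in the FFA library, 6498 CPM with an exact 95% interval of 6477 to 6518. In the 9-cis-RA library they were 265982, 4612 CPM with an interval of 4595 to 4630. The log2 difference was -0.54 [-0.55, -0.54], taken with the size factors, whereas CPM divides by the library total. Summed log2 differences below are taken in the same way.

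SPP1 and FN1 carried most of the matrix RNA. SPP1 encodes osteopontin, a secreted phosphoprotein that binds integrins, and lies at chr4:87975650-87983426. Its counts were 158202 with FFA and 82857 with added 9-cis-RA, and its log2 fold change was -0.91 [-0.92, -0.89]. Its level was 3248 TPM and then 1846, rank 24 and rank 35 of all genes. SPP1 took 40.0% of all matrix counts with FFA and 31.2% with added 9-cis-RA. FN1, at chr2:215360440-215436073, encodes fibronectin, a glycoprotein that joins collagen to integrins. Counts of FN1 were 101411 and 68623, its log2 fold change was -0.54 [-0.55, -0.52], and its levels were 281 and 206 TPM. Under total-count scaling its log2 fold change was -0.49, short of the -0.5 mark. Its share of matrix counts was alike in both libraries, 25.7% and 25.8%. The summed log2 difference of the matrix class was -0.34 without SPP1 and -0.22 without SPP1 and FN1, so the class remained lower without them by a smaller amount. SPARC, a collagen-binding glycoprotein, had 1623 and 1520 counts, with an interval that held 0 (log2 fold change -0.07 [-0.17, 0.03]).

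**Figure D2:**
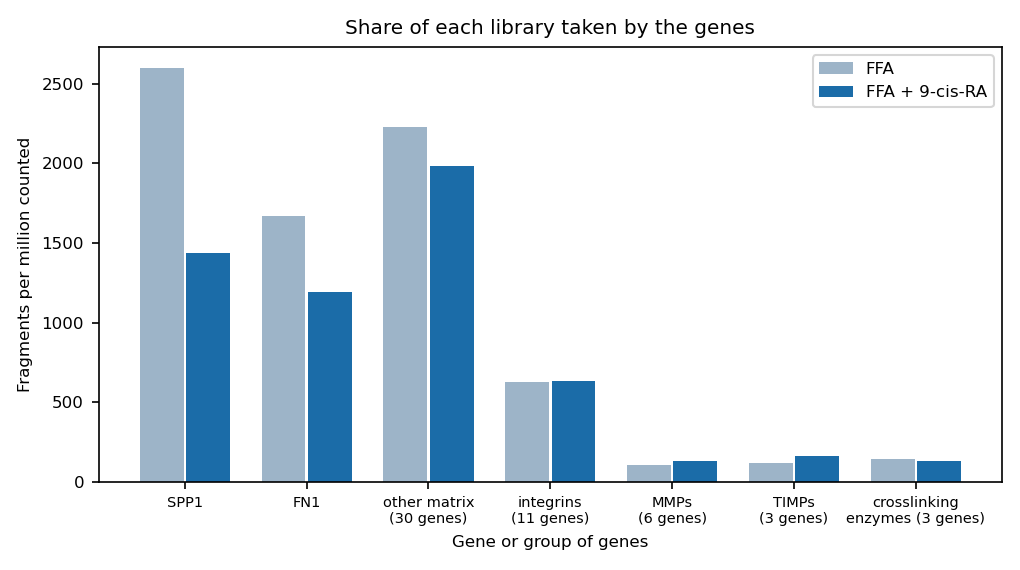
CPM (counts-per-million, y axis, from 0) taken by SPP1, FN1, the other 30 matrix genes, the integrins, MMPs, TIMPs and crosslinking enzymes, as bars for the FFA library (light) and the 9-cis-RA library (dark). The matrix bars are lower with 9-cis-RA, the integrin bars are nearly level at 628 and 631, and the MMP and TIMP bars are higher.

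Collagens were lower in 10 of the 12 compared, with a median log2 fold change of -0.45. Below -0.5 were 6 of the 12 (50%, against 14.3% of all genes compared). The 18 collagen genes summed to 34639 counts with FFA and 23967 with added 9-cis-RA, a log2 difference of -0.50. COL27A1, a fibrillar collagen found in cartilage, led them in counts. Its counts were 13087 and 7022, its log2 fold change was -0.87 [-0.91, -0.83], and its levels were 44.5 and 25.9 TPM. COL7A1, the collagen of anchoring fibrils that pin epithelia to the tissue beneath, had 8970 and 5511 counts, with a log2 fold change of -0.68 [-0.72, -0.63]. COL6A1, a chain of beaded microfibrils, had 4049 and 3232 counts and a smaller log2 fold change of -0.30 [-0.36, -0.23]. COL5A1, which sets the width of collagen fibrils, stood at 131 and 78 counts (log2 fold change -0.71 [-1.14, -0.31]). Its partner chain COL5A2 had 87 and 67 counts, and its interval held 0 (log2 fold change -0.34 [-0.83, 0.13]). COL2A1, the main collagen of cartilage, had few counts, 14 and 3, and a wide interval (-1.88 [-4.63, -0.35]). Its fold change was the lowest of the 45 genes with a pseudocount of 1, but with a pseudocount of 5 it was -1.23 and LAMA1 was lowest at -1.75.

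The type I collagen genes that define fibrotic scar were near absent. COL1A1 had 1 count in the FFA library and 2 in the 9-cis-RA library, and COL1A2 had 3 and 1. Neither was compared. COL18A1, the source of endostatin, and COL9A2, a chain that coats cartilage fibrils, were abundant enough to compare and stood near 0. COL18A1 had 7175 and 7060 counts (log2 fold change 0.00 [-0.04, 0.05]) and COL9A2 had 774 and 759 (0.00 [-0.15, 0.15]). These intervals leave room for a change of at most 0.15 in either direction from counting error.

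Type IV collagen genes lie in head-to-head pairs that share a promoter region, and in 1 of 3 pairs a chain was nearly without counts beside its partner. COL4A2, on the strand opposite to COL4A1, had 246 and 163 counts (log2 fold change -0.56 [-0.86, -0.27]). The outermost annotated starts of the pair are 1345 bases apart, and the gene models overlap there. By the RefSeq promoters the starts lie closer, with the COL4A1 window beginning at chr13:110307158 and the COL4A2 window ending at chr13:110307283. COL4A1, whose chains join that of COL4A2 in the usual trimer, had 0 and 4 counts. COL4A5 had 78 and 41 counts (-0.88 [-1.48, -0.34]). COL4A6, with a start 347 bases away, had 19 and 16 (-0.21 [-1.28, 0.82]). COL4A5 thus had more counts than COL4A6 in both libraries, while the intervals of their fold changes overlapped. COL4A3 had 0 and 1 counts and its partner COL4A4 had 1 and 0. The chains of type VI collagen were unequal: COL6A2, the neighbor of COL6A1, had 5 and 7 counts, and its level per length was lower than that of COL6A1 by a ratio of 811 in the FFA library and 462 in the 9-cis-RA library. COL6A3, the third chain, had 1 count in each library. Whether the low counts of COL4A1 and COL6A2 belong to the cells or to the mapping or annotation of their reads cannot be told apart here.

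Basement membrane genes together differed less than the collagens. Their 17 genes summed to 106834 and 96300 counts, a log2 difference of -0.12, and 11 of the 14 compared were lower. All 7 laminin chains were compared, and 6 were lower and 1 higher. LAMB1, the most abundant, had 29201 and 25849 counts (log2 fold change -0.15 [-0.17, -0.12]) and a level of 172 and 166 TPM. LAMB2 had 11897 and 10376 counts (-0.17 [-0.21, -0.13]) and LAMA5 had 21110 and 18011 (-0.20 [-0.23, -0.17]). LAMC1, the gamma chain shared by most laminins, was the higher one, at 7374 and 8198 counts (0.18 [0.13, 0.23]). The ratio of LAMB1 to LAMC1 in TPM was therefore 4.14 in the FFA library and 3.30 in the 9-cis-RA library, and that of the 3 alpha chains to LAMC1 was 1.78 and 1.37.

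LAMA1 was the laminin farthest from 0. It encodes the alpha chain of an early embryonic laminin and lies at chr18:6941742-7117797. Its counts were 163 and 44, its log2 fold change was -1.84 [-2.38, -1.37], and it had a level of 0.490 and 0.143 TPM. Of all genes compared, 1.02% had a lower fold change. LAMA5, the abundant alpha chain, stood at 70.4 and 65.2 TPM, so the large fold change of LAMA1 belonged to a chain of low level. LAMA3 and LAMB3 encode chains of the laminin of skin and other epithelia. LAMB3 had 142 and 89 counts (-0.64 [-1.05, -0.25]), while LAMA3 had 1042 and 951 with an interval that held 0 (-0.10 [-0.23, 0.02]).

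Among the other basement membrane genes NID1, which links laminin to type IV collagen, had 9021 and 6946 counts and a log2 fold change of -0.35 [-0.39, -0.30]. NID2 had 1 and 0 counts. The heparan sulfate proteoglycans differed little. HSPG2, which encodes perlecan, had 3573 and 3570 counts (0.03 [-0.04, 0.09]). AGRN, which encodes agrin, had 15792 and 14981 (-0.05 [-0.08, -0.02]), with 3.74% of its exonic bases overlapped by another gene on the same strand.

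**Figure D3:**
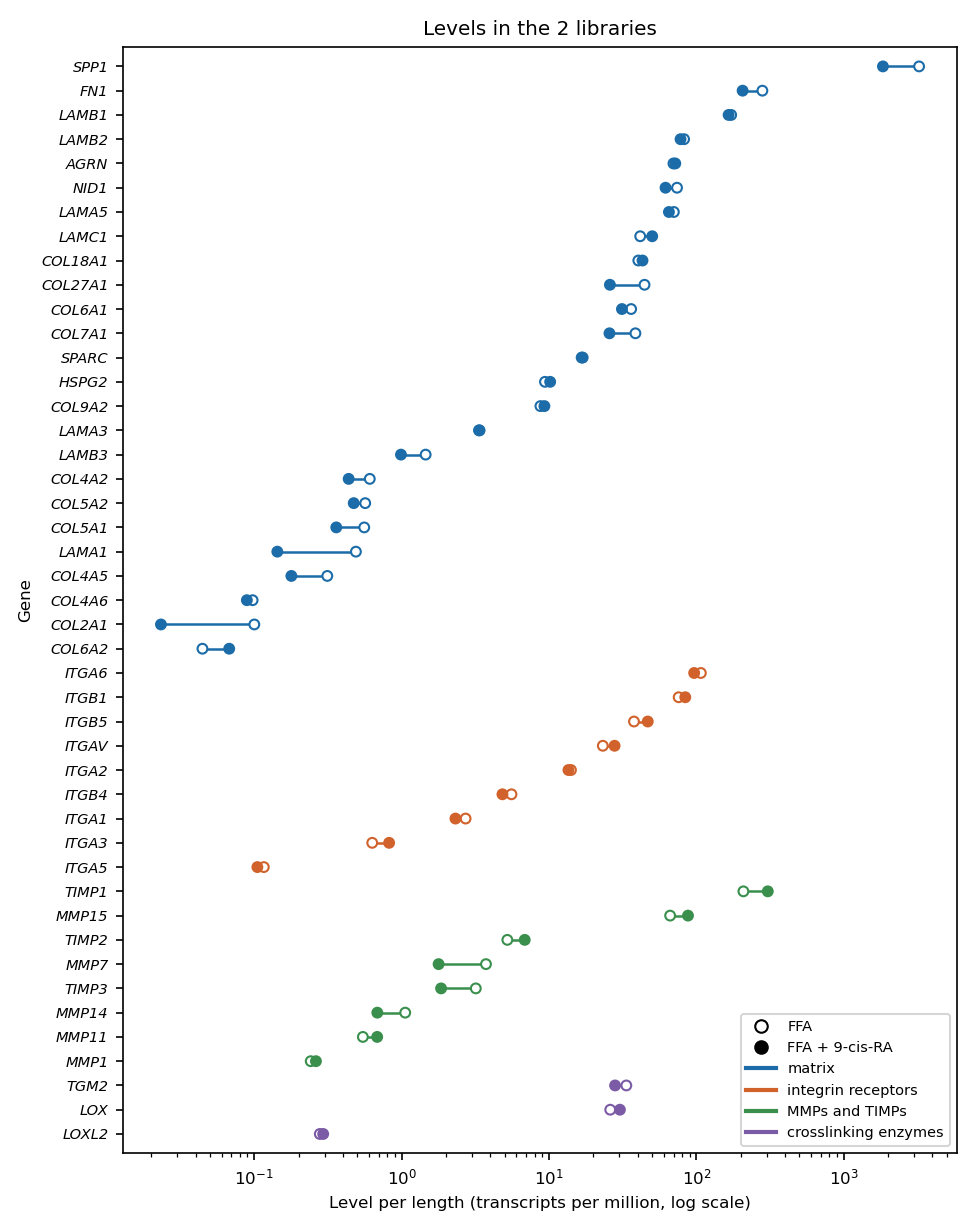
Level of the 45 compared genes in transcripts-per-million (x axis, log scale), 1 row per gene ordered by level within each role, with the FFA library as open and the 9-cis-RA library as filled points. SPP1 is the most abundant at 3248 and 1846 TPM, and the genes with long lines, LAMA1 and COL2A1, lie under 1 TPM.

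The integrin receptors compared lay within 0.5 of 0, as most genes compared did. Of 11 genes 9 were compared, 4 higher and 5 lower, all between -0.32 and 0.29, with a median of -0.15 (medians of the bounds -0.23 and 0.10). None was past 0.5 in either direction, beside 9.03% of all genes compared above 0.5 and 14.3% below -0.5. Their summed counts were 38188 and 36361, which is 628 CPM [622, 634] with FFA and 631 CPM [624, 637] with added 9-cis-RA. With the size factors the log2 difference of this sum was -0.04 [-0.06, -0.02], opposite in direction to the CPM and small. The summed log2 difference was -0.15 for 6 alpha chains and 0.10 for 5 beta chains. ITGA6 carried the alpha sum, since the other 5 alpha chains summed to 7545 and 7504 counts (0.02 [-0.03, 0.07]), and all receptors without ITGA6 differed by 0.07 [0.05, 0.10]. Chains of both kinds stood on either side of 0.

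ITGA6, the alpha chain of laminin receptors, was the most abundant integrin. Its counts were 15117 and 12543, its log2 fold change was -0.24 [-0.28, -0.21], and its levels were 107 and 96.7 TPM. ITGB4, its partner in hemidesmosomes, had 790 and 632 counts (-0.29 [-0.45, -0.14]). ITGB1, the beta chain that pairs with most alpha chains, had 9573 and 9782 counts (0.06 [0.02, 0.10]), so the TPM ratio of ITGA6 to ITGB1 was 1.41 and then 1.15. The collagen receptor chains ITGA1 and ITGA2 were both lower. ITGA1 had 1058 and 832 counts (-0.32 [-0.45, -0.19]), with 5.77% of its exonic bases overlapped on the same strand, and ITGA2 had 2337 and 2070 (-0.15 [-0.23, -0.06]). ITGAV and ITGB5, which pair to bind vitronectin and osteopontin, were both higher. ITGAV had 4002 and 4431 counts (0.17 [0.11, 0.24]), and ITGB5 had 5162 and 5898 (0.22 [0.17, 0.27]). SPP1, whose product they bind, was lower in the same library. ITGA5, the alpha chain of the classic fibronectin receptor, had 18 and 15 counts, and ITGA3, another laminin receptor chain, had 130 and 156, both with intervals that held 0. ITGB3 had 1 and 2 counts, and 51.6% of its exonic bases are overlapped by another gene on the same strand.

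The proteases and their inhibitors split. Of 9 genes 8 were compared, 5 higher and 3 lower, with a median log2 fold change of 0.13 (medians of the bounds -0.72 and 0.41). Their summed counts were 13504 and 16852, or 222 CPM [218, 226] and 292 CPM [288, 297]. With the size factors the log2 difference was 0.35 [0.31, 0.38]. TIMP1 and MMP15 made up most of this sum, and both were higher. TIMP1, a secreted inhibitor of many MMPs at chrX:47582408-47586789, had 6332 and 8541 counts (log2 fold change 0.46 [0.41, 0.51]) and levels of 209 and 305 TPM. It was the highest of the 45 genes, and 90.1% of all genes compared were lower. Under total-count scaling its log2 fold change was 0.51, past the 0.5 mark. With a pseudocount of 0.1 or with the trend on mean expression removed, COL6A2 with its 5 and 7 counts was highest instead, at 0.50 and 0.57. MMP15, a membrane-bound protease, had 5896 and 7183 counts (0.31 [0.26, 0.36]) and levels of 66.4 and 87.8 TPM. TIMP2 was also higher, with 617 and 746 counts (0.30 [0.15, 0.46]), with 3.52% of its exonic bases lying under a same-strand gene.

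The 3 lower genes of this class had fewer counts. MMP7, matrilysin, a small epithelial protease, lies at chr11:102520508-102530750 and was counted 182 and 80 times (log2 fold change -1.15 [-1.56, -0.77]). MMP14, the membrane-bound protease that activates MMP2, had 99 and 59 counts (-0.71 [-1.21, -0.24]). TIMP3, an inhibitor that stays bound to the matrix, had 308 and 165 counts (-0.87 [-1.15, -0.60]), opposite in direction to TIMP1 and TIMP2. MMP1, an interstitial collagenase, had 10 counts in each library, and MMP11, stromelysin-3, had 59 and 68, both with intervals that held 0. MMP2, a gelatinase of stromal cells, had 1 and 0 counts. Per length, the 3 TIMPs exceeded the 6 MMPs by a ratio of 3.01 in the FFA library and 3.44 in the 9-cis-RA library. TIMP1 set this ratio, for TIMP2 and TIMP3 alone were at 0.117 and 0.0954 of the MMP level. Without TIMP1 the summed log2 difference of the class was 0.24.

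The crosslinking enzymes differed in direction. TGM2, tissue transglutaminase, had 5587 and 4318 counts and a log2 fold change of -0.34 [-0.40, -0.29]. LOX, lysyl oxidase, had 3033 and 3250 counts (0.13 [0.06, 0.20]). LOXL2, its relative, had 35 and 34, too few to show a difference smaller than about 0.7 (-0.01 [-0.74, 0.71]).

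Set side by side, the median log2 fold change was -0.30 for 25 matrix genes, -0.15 for 9 integrins, 0.13 for 8 proteases and inhibitors, and -0.01 for 3 crosslinking enzymes. Below -0.5 were 10 of 25 matrix genes (40%), 0 of 9 integrins, 3 of 8 proteases and inhibitors (37.5%) and 0 of 3 crosslinking enzymes, beside 14.3% of all genes compared. Among as few as 9 or 3 genes, a count of 0 is little apart from that share. The genes of a class are not replicates of a condition, so the difference between classes carries no test. Levels also differed by class: 13 of 32 matrix genes had a mean of at least 10 TPM and 15 were under 1 TPM, whereas 2 of the 9 protease and inhibitor genes were at 10 TPM or more.

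**Figure D4:**
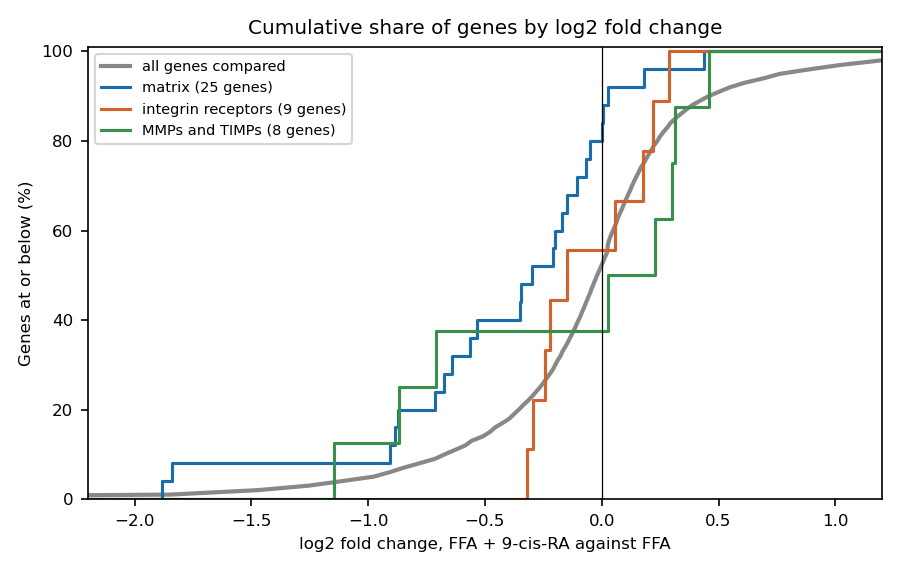
Percent of genes (y axis) at or below each log2 fold change (x axis, 9-cis-RA library against FFA library) for 25 matrix genes, 9 integrins, 8 MMPs and TIMPs, and all 20431 genes compared (grey). The matrix curve lies to the left of the grey curve, the integrin curve runs steeply between -0.32 and 0.29, and the MMP and TIMP curve has 3 genes below -0.5 and 5 above 0.

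A further list of 124 genes of the same systems (other collagens, laminins, glycoproteins, proteoglycans, integrins, adaptors, proteases and collagen-processing enzymes) was read in the same way. Of these 89 were compared, 40 higher and 49 lower, with a median log2 fold change of -0.03, and 11 (12.4%) lay below -0.5 and 7 above 0.5. These shares are near those of all genes compared, 14.3% below -0.5 and, against 7.87% here, 9.03% above 0.5. Past 1 were 3 higher genes (3.37%, against 3.37% of all) and 3 lower genes (3.37%, against 4.9%). The 10 further collagens compared were 5 higher and 5 lower, with a median of 0.03, beside 10 of 12 lower among the collagens above. They had few counts, with a median of 57 over both libraries against 309 for the collagens above. The 5 higher ones had at most 71 counts each, whereas the well-counted COL9A3 and COL16A1 were both lower. COL9A3 had 7785 and 5589 counts (-0.45 [-0.50, -0.40]). Some genes were lower. COL16A1, a fibril-associated collagen, had 6381 and 3745 counts (-0.74 [-0.80, -0.68]). SERPINH1, the chaperone that folds procollagen, had 3803 and 2227 (-0.74 [-0.82, -0.67]), and EMILIN1, an elastic fiber glycoprotein, had 4062 and 2650 (-0.59 [-0.66, -0.52]). THBS1, thrombospondin, had 435 and 213 counts (interval -1.25 to -0.76), and ELN, elastin, had 104 and 47 (-1.10 [-1.65, -0.61]). Also below -1, with few counts and named after their values were seen, were COL5A3 and MMP19. COL5A3 had 43 and 11 counts (-1.85 [-3.04, -0.96]), and MMP19 had 25 and 7 (-1.68 [-3.26, -0.56]). Others were higher. The 3 above 1, named after their values were seen, had few counts: LOXL1, a lysyl oxidase, had 13 and 41 (1.61 [0.76, 2.71]), BGN, biglycan, had 10 and 27 (1.37 [0.37, 2.67]), and COL11A2, a cartilage collagen, had 18 and 42 (interval 0.42 to 2.13). VCAN, the proteoglycan versican, had 5626 and 8465 counts (0.62 [0.57, 0.67]), and TLN1, talin, which ties integrins to actin, had 14997 and 19534 (0.41 [0.38, 0.44]). Of the 9 proteoglycans compared 4 were higher and 5 lower. Among the lower ones, SDC2 had 12697 and 8387 counts (-0.57 [-0.61, -0.53]) and GPC3 had 765 and 465 (-0.69 [-0.86, -0.52]). All 5 other integrins compared were lower, with a median of -0.33, whereas 14 integrin adaptors were 8 higher and 6 lower.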

How the data were processed

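RNA was sequenced from HepG2 cells in 2 libraries, 1 per group, as poly(A) RNA in stranded libraries. The deposited values are raw counts of fragments per gene, made by the authors with featureCounts version 2.0.1 according to the file headers, with pairs mapped at both ends, a fragment length check, and strand setting 2 (reverse). Multi-mapping fragments, and those falling on more than 1 gene of a strand, were left out, which lowers overlapped and near-identical genes. The build is GRCh38. The aligner and the annotation release are not given in the sources used here.

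The 60623 identifiers were given symbols (60295 matched). DESeq2 version 1.42.0 gave the size factors and edgeR version 4.0.16 the TMM factors of an alternative (R version 4.3.3). Log2 fold changes used a pseudocount of 1, which understates low genes, and genes whose counts totalled 10 or more. TPM used the deposited lengths. Exact Clopper-Pearson 95% intervals and floors of 3 counts cover counting error only. Python 3.11.15, numpy 2.4.6, pandas 2.3.3, scipy 1.17.1, statsmodels 0.14.6 and matplotlib 3.10.9 were used, and steps were tested on simulated data. With 1 library per group no model was fitted, and p-values are absent.

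The members and lists were chosen with earlier results of these data known. Values are given for every gene past 0.5 or -0.5 whose interval excludes 0, for the 3 genes of highest level per role, for partners in a pair or trimer, and for at most 3 genes with at least 100 counts per further list. The remaining members were named after their values were seen, to account for the whole list. Overlap was computed from the exon coordinates deposited with the counts, and gene types were taken from GENCODE release 29. The 10 alternatives were scaling by TMM or by total counts, a pseudocount of 0.1 or 5, no filter, a minimum of 50 counts, a restriction to protein-coding genes, a call only where the whole interval passed, and removal of loess trends (span 0.3) on gene length and mean expression.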

Additional observations from a re-analysis of the deposited data

How the results depend on the processing

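Recomputed under the alternatives were the counts past 0.5 and 1 (10 settings), and the medians and part of the genes (at most 9). Those genes were the members past 0.5 or -0.5 whose interval excludes 0 and the 3 of highest level per role. The call on the whole interval changes only the counts. A change of the count filter or the restriction to protein-coding genes cannot change the log2 fold change of a single gene. Among the recomputed values the sign differed between settings only for LOXL2, the median of the crosslinking enzymes (-0.03 to 0.09) and the median of the further matrix genes, all near 0. Genes near 0 outside this set, such as AGRN and COL9A2, were not recomputed, nor were the numbers of lower and higher genes. The number of genes above 0.5, which was 0, became 1 of 45 under 4 settings. For TIMP1 these were total-count scaling, beside 10.1% of all genes, and removal of the trend on gene length, beside 10.2%. For COL6A2 they were a pseudocount of 0.1, beside 9.46% of all genes, and removal of the trend on mean expression, beside 10.7%. With no filter on low counts 4 of 52 lay above 0.5, beside 18.4% of all genes, and 2 above 1, beside 12.7%. The whole interval lay below -1 for 1 gene in place of 3, beside 0.930% of all genes, and below -0.5 for 7 in place of 13, beside 3.71%. COL2A1 ranged from -2.16 to -1.23. The median of the 45 genes ranged from -0.24 to -0.14, of matrix genes from -0.32 to -0.25, of integrins from -0.18 to -0.04, of proteases and inhibitors from 0.03 to 0.23, and of the further matrix genes from -0.06 to 0.02. FN1 ranged from -0.58 to -0.45 and was not past -0.5 under total-count scaling (-0.49) or with the trend on mean expression removed. TIMP1 ranged from 0.46 to 0.57. Among protein-coding genes 9.87% of all lay below -0.5 and 5.58% above 0.5, beside 13 and 0 of the 45. No paired analysis was possible because each group has 1 library. With 1 library per group, the spread between cultures is unknown and counting error is the least it can be.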
